A study of Mus musculus with 16 samples.

Results

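Transcript levels were compared between resident peritoneal macrophages of mice lacking Ogr1 (KO) and of wild-type mice (WT), both kept for 24 h at pH 7.7, the less acidic of the 2 conditions of the study. The comparison rests on 8 of the 16 arrays of the series, 4 KO and 4 WT, chosen by genotype and pH as the sample names give them. The other 8 arrays hold the same genotypes at pH 6.7 and serve here to show where the difference at pH 7.7 stood apart. Mice of both genotypes are labelled as C57BL/6, and all cells were cultured in RPMI medium with 10% fetal calf serum. The treatment text puts the 2 conditions at 7.6 and 6.8 rather than 7.7 and 6.7, and the values of the sample names are used here. The sources do not say whether each array came from its own animal or culture, or from pooled animals, so p-values measure only the spread between these arrays, which may be technical. The labels do not describe the deletion itself. The targeted transcript is not analysed here, so the genotype labels were not checked against it.

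Ogr1 is a G protein-coupled receptor of the cell surface that is activated when protons bind histidines on its outer face. It is largely inactive at alkaline pH and couples, when protonated, to phospholipase C and release of calcium from internal stores. At pH 7.7 the comparison therefore asks what differs between the genotypes with little acid stimulus to the receptor. Resident peritoneal macrophages are phagocytes of the abdominal cavity, and most belong to a large, self-maintaining population set up by the transcription factor Gata6.

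Each array gave an intensity for 241576 probe sets, most of which cover a single exon or a part of one. The value of a gene was the mean of log2 intensity over all probe sets annotated to its symbol alone, for 20848 genes in all, read by 8 probe sets at the median. A gene was tested when its value lay above the median gene value of the array on at least 4 of the 16 arrays, which left 11177 genes. The array medians lay between 2.56 and 2.69 log2. Some genes named below had values near or under them, among them Gper1, Fah, Kcnk3 and A630089N07Rik. All 10 macrophage markers examined passed this filter, among them Csf1r, the receptor for the macrophage growth factor, and the pan-macrophage gene Adgre1. The mean over these 10 markers was between 7.47 and 8.03 on the WT arrays and between 7.73 and 8.09 on the KO arrays at pH 7.7. With 4 arrays a group, precision was limited, and the median SE of a KO minus WT difference was 0.13 log2.

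Some arrays stood apart for reasons the labels do not give. WT replicate 2 at pH 7.7 had a median correlation of 0.8834 with the other arrays over all probe sets, against 0.9073 to 0.9227 for the other 15, and results are therefore given with and without it. Separately, 10 genes led by Sparc, which encodes a secreted matrix protein, and Cyp11a1, the enzyme that starts steroid hormone synthesis, were high together on 6 arrays and low on 10. This set was chosen after the values were seen, as the genes with the largest loadings on the second principal component, which held 14.8% of the variance. At pH 7.7 the set was high on 1 WT array, replicate 3, with a mean of 5.37, and on 2 KO arrays, replicate 1 with 6.42 and replicate 4 with 6.12. On the remaining 5 arrays at pH 7.7 it lay between 2.09 and 2.81. The set was therefore spread over both genotypes but not evenly. Its part in the differences below was not tested beyond the values given with these arrays left out and with the level of the set as a covariate.

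**Figure D1:**
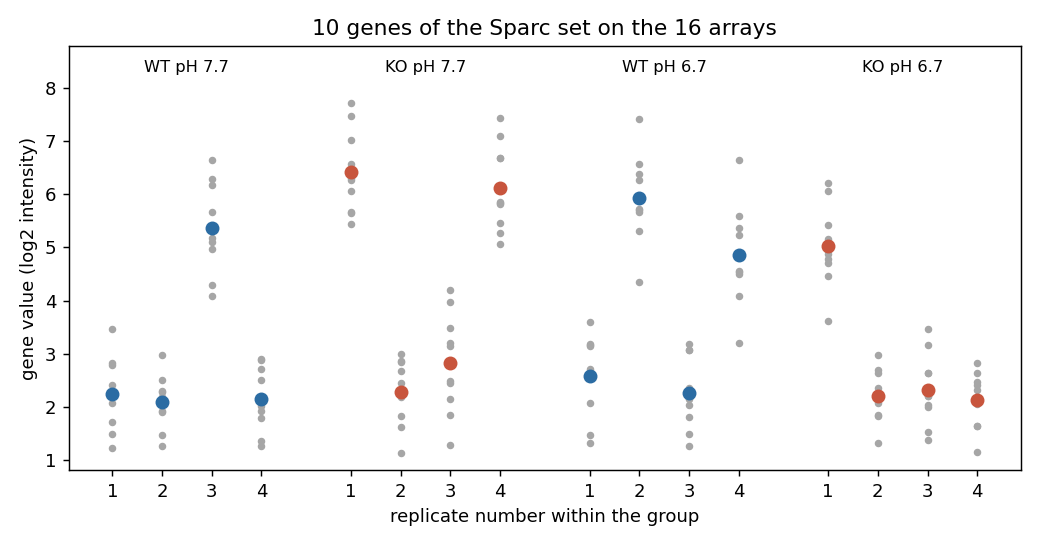
Gene values (log2 intensity) of the 10 genes of the Sparc set on each of the 16 arrays, by group and replicate number. Grey points are single genes and large points their mean on the array (blue WT, red KO); the mean lay between 4.86 and 6.42 on 6 arrays and between 2.09 and 2.81 on the other 10.

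No gene passed the threshold of an adjusted p under 0.05 in KO against WT at pH 7.7 (0 higher and 0 lower, 0% of those tested). The fit was limma over all 16 arrays with a mean for each group and Benjamini-Hochberg adjustment over the 11177 genes, and its smallest adjusted p was 0.141. At an unadjusted p under 0.05 stood 950 genes, or 8.5% of those tested, of which 613 (5.48%) had a higher mean in KO and 337 (3.02%) a lower one. In 403 genes (3.61%) the 4 KO arrays did not overlap the 4 WT arrays, 269 (2.41%) with all KO arrays above and 134 (1.2%) with all below. Differences were small for most genes, with a median size of 0.107 log2, and 37 genes differed by more than 1 log2, a 2-fold difference, 29 of them higher in KO. The 95% interval of the difference lay within 1 log2 of zero in either direction for 10905 genes, 97.6% of those tested. For these genes a difference of more than 2-fold in the gene value lay outside the interval. The gene value averages probe sets, and single ones could differ by more, as in Clec4d below (up to −2.14 log2).

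The balance between higher and lower genes depended on WT replicate 2 and on scaling. Without WT replicate 2 no gene passed either (0%), the smallest adjusted p was 0.117, and 946 genes had an unadjusted p under 0.05. Of these, 380 were higher in KO and 566 lower, the opposite balance. Without it, 367 genes (3.28%) lay without overlap above and 551 (4.93%) below, and the median difference over all genes went from 0.027 to −0.013 log2. With arrays centred on their own medians, 37.8% of the genes at an unadjusted p under 0.05 were higher in KO, against 64.5% with the deposited scaling. A second quantile normalization gave 46.2%. The direction of the genome-wide tilt was thus not stable. Values without WT replicate 2 are given below for the 20 genes with the smallest p, and for some list members and list medians. The remaining members and lists are given with that array only.

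**Figure D2:**
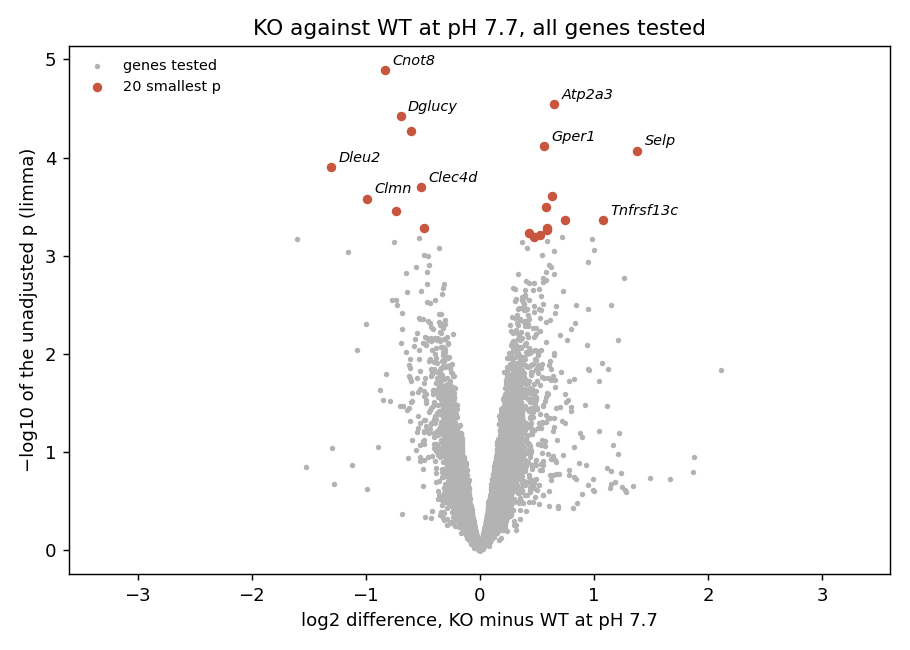
Log2 difference between KO and WT at pH 7.7 (horizontal) against −log10 of the unadjusted limma p (vertical) for the 11177 genes tested. Red points are the 20 genes with the smallest p, none of which passed the adjusted threshold; Selp (1.38 log2) and Dleu2 (−1.30 log2) were the farthest to each side among them.

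The 20 genes with the smallest p are described next by what they encode, and none of them passed the threshold. In all 20 the KO and WT arrays did not overlap, as they did not in 3.61% of all genes tested, but the genes were chosen for small p and this count carries no further weight. In 12 the KO mean was higher and in 8 lower. Without WT replicate 2, 9 of the 20 were again among the 20 smallest p. All 20 kept their direction there, as they must where the arrays do not overlap. On the arrays with a low Sparc set, which at pH 7.7 are 3 WT and 2 KO arrays, their direction could not change either. There Dleu2 passed, with an adjusted limma p of 0.0116, and no other gene did.

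Several of the 20 genes encode receptors and adhesion molecules. Selp encodes P-selectin, an adhesion molecule for leukocytes that large peritoneal macrophages also express. Its values were 3.75, 3.02, 3.54 and 3.71 on the WT arrays and 4.97, 5.0, 4.17 and 5.40 on the KO arrays. All KO arrays were above all WT arrays, with WT replicate 2 lowest and KO replicate 3 the lowest of its group. The difference was 1.38 ± 0.27 log2 (SE, n = 4 and 4), or 2.6-fold, with a 95% interval of 0.81 to 1.95 and an adjusted limma p of 0.158. All 17 probe sets of Selp had a higher KO mean, 8 of them without overlap, and the difference was 1.22 without WT replicate 2. Over the 15 markers of large peritoneal macrophages, Selp included, the mean was 5.83 to 6.07 on the WT arrays and 6.12 to 6.38 on the KO arrays. The median difference of these markers was 0.20 log2, and 0.10 without WT replicate 2. Selp, chosen for its small p, had the largest difference of the 15. Serpinb2 (means of 7.78 in WT and 7.46 in KO), Fabp7 (8.58 and 8.50) and Prg4 (8.01 and 7.98) went the other way. The other 12 had higher KO means. The part of the cell population in the Selp difference was not tested. In bulk samples of this kind, a different number of cells of one type and a different amount of RNA per cell cannot be told apart.

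Tnfrsf13c encodes the receptor for BAFF, a survival factor of B cells. It measured 3.04, 2.87, 2.92 and 3.13 in WT and 4.25, 3.62, 3.84 and 4.57 in KO. The WT arrays lay close together and below every KO array, and the highest were KO replicates 1 and 4, which had a high Sparc set. The difference was 1.08 ± 0.25 log2 (adjusted limma p 0.301), all 6 probe sets were higher in KO, and without WT replicate 2 it was 1.04. On the arrays with a low Sparc set it was 0.72. Another B cell marker, Cd79b, a chain of the B cell receptor complex named here after its values were seen, had WT values of 3.33, 3.96, 3.08 and 3.18 and KO values of 4.29, 3.73, 3.68 and 5.05. Those groups overlapped through WT replicate 2. Over the 13 B cell markers with a value, of which 7 were tested, the mean per array was 2.62 to 2.90 in WT and 2.80 to 3.32 in KO. The median difference of the 7 was 0.34 log2, and 0.45 without WT replicate 2. Pax5 (means of 2.70 in WT and 2.62 in KO), Blk (2.54 and 2.36) and Cr2 (1.98 and 1.96) went the other way. The rest of the 13 had higher KO means. The share of B cells in the Tnfrsf13c difference was not tested.

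Clec4d encodes a C-type lectin of myeloid cells that binds microbial glycolipids. It measured 8.11, 8.17, 8.14 and 8.25 on the WT arrays and 7.42, 7.75, 7.61 and 7.83 on the KO arrays. The WT values lay within a narrow band, and every KO value was under it. The difference was −0.52 ± 0.11 log2 (adjusted limma p 0.281) with and without WT replicate 2, and all 8 probe sets were lower in KO. The differences of its probe sets ran from −2.14 to −0.01 log2, with a median of −0.22. The largest, −2.14 and −1.01, came from the dimmest probe sets, with means of 4.19 and 4.97. The brighter ones, with means of 8.04 to 10.13, differed by −0.42 to −0.01 and all overlapped. With the brightest probe set alone the difference was −0.07 log2 (adjusted limma p 0.819). Gper1, a membrane receptor for estrogen, measured 2.45, 2.28, 2.33 and 2.64 in WT and 2.88, 2.94, 3.06 and 3.08 in KO, a difference of 0.56 ± 0.11 log2 (adjusted limma p 0.158) and 0.51 without WT replicate 2. Of its 3 probe sets 1 carried most of this, at 1.29 log2, and the median was 0.20. Plxna4, a plexin that receives semaphorin guidance signals, was higher in KO by 0.59 ± 0.14 log2 (adjusted limma p 0.301), with 28 of its 32 probe sets higher, and by 0.48 without WT replicate 2. For Plxna4 the highest WT array (3.57) and the lowest KO array (3.70) lay near each other, and WT replicate 2 (2.99) was the lowest of all.

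**Figure D3:**
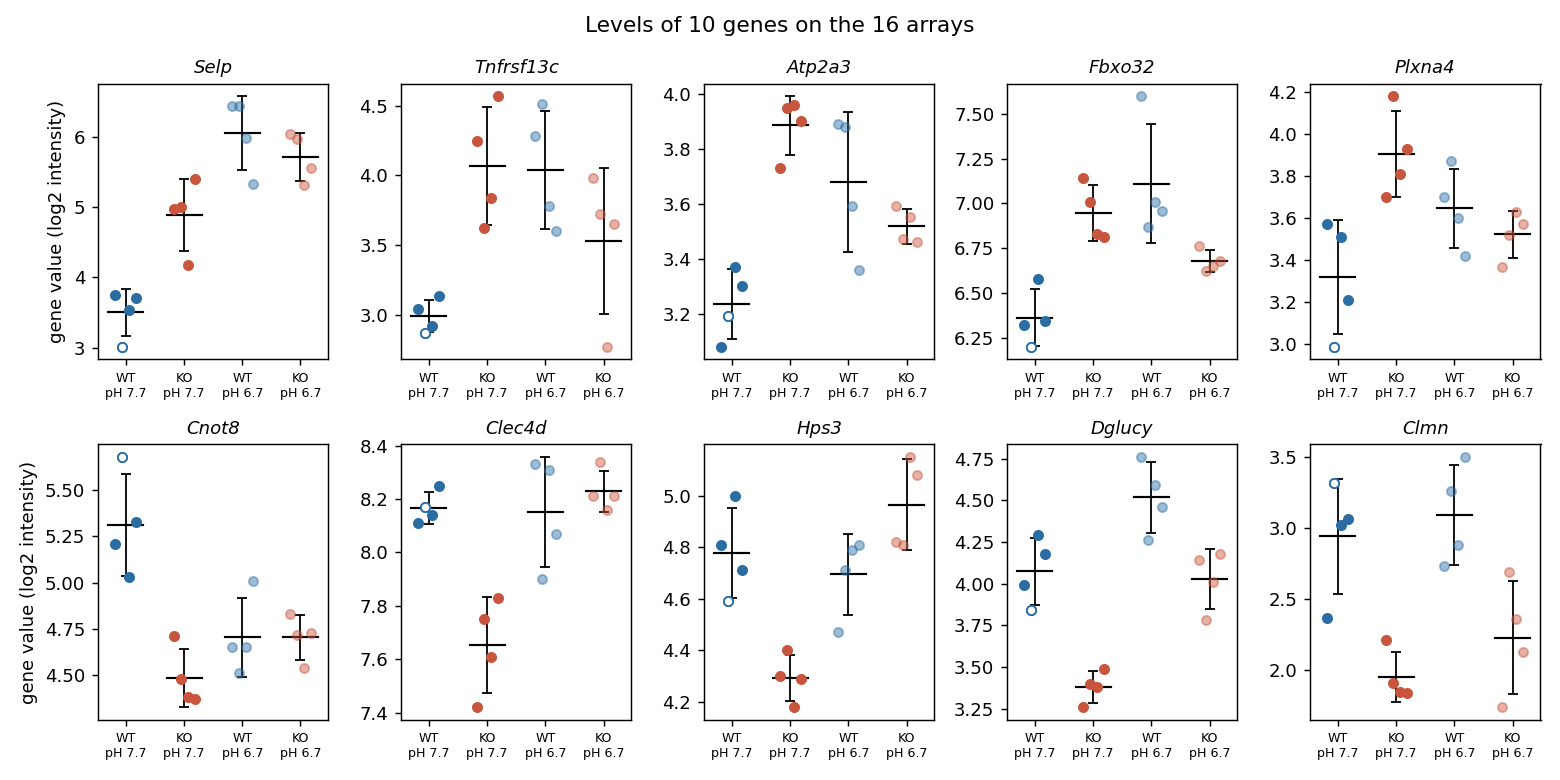
Gene values (log2 intensity) of 10 of the 20 genes on the 16 arrays, in 4 groups of 4 (blue WT, red KO; the paler points are pH 6.7). Lines are group means and bars SDs; the open circle is WT replicate 2 at pH 7.7. At pH 7.7 the genotypes do not overlap in any panel, and at pH 6.7 they stay apart in the same direction for Dglucy and Clmn and in the opposite direction for Fbxo32.

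A second group concerns calcium, protein turnover and metabolism. Atp2a3 encodes SERCA3, a pump that returns calcium to the endoplasmic reticulum. It measured 3.08, 3.19, 3.37 and 3.30 in WT and 3.73, 3.95, 3.96 and 3.90 in KO, so the gap between the groups exceeded the range within either. The difference was 0.65 ± 0.12 log2 (1.57-fold, adjusted limma p 0.141), with 19 of 23 probe sets higher in KO, and 0.64 without WT replicate 2. Fbxo32 encodes atrogin-1, the substrate-binding part of a ubiquitin ligase, and measured 6.32, 6.20, 6.58 and 6.34 in WT and 7.14, 7.01, 6.83 and 6.81 in KO. All 11 of its probe sets were higher in KO, 4 of them without overlap. Its difference was 0.59 ± 0.14 log2 (adjusted limma p 0.301) and 0.53 without WT replicate 2. Pdxk, the kinase that activates vitamin B6, differed by 0.47 ± 0.11 log2 (adjusted limma p 0.301) with KO arrays of 5.08 to 5.51 and WT arrays of 4.55 to 4.97, and by 0.39 without WT replicate 2. Fah, the last enzyme of tyrosine breakdown, differed by 0.53 ± 0.13 log2 (adjusted limma p 0.301) with 12 of 14 probe sets higher in KO, and by 0.54 without WT replicate 2.

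The third group encodes regulators of RNA, chromatin and organelles. Cnot8, a deadenylase of the CCR4-NOT complex that shortens the poly(A) tails of mRNA, had the smallest p of all genes. It measured 5.21, 5.68, 5.03 and 5.33 in WT and 4.71, 4.48, 4.38 and 4.37 in KO. WT replicate 2 was the highest array and all KO arrays lay below all WT arrays. The difference was −0.83 ± 0.14 log2 (95% interval −1.12 to −0.54, adjusted limma p 0.141), and −0.71 without WT replicate 2. Of its 6 probe sets 5 were lower, from −2.74 to 0.11 log2, with a median of −0.42. Cnot8 passed the threshold with arrays centred on their medians (adjusted limma p 0.0422) and under the stricter filter (0.048). Its difference shrank to −0.40 log2 with the brightest probe set alone (adjusted limma p 0.565) and with the median over probe sets (adjusted limma p 0.425). Hps3, a subunit of a complex that builds lysosome-related organelles, was lower by 0.49 log2 (SE 0.11, adjusted limma p 0.301), with 16 of 19 probe sets lower, and its difference was −0.55 without WT replicate 2. With the brightest probe set alone Hps3 turned to 0.11 log2 higher.

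Dleu2, a non-coding RNA that hosts the miR-15a and miR-16-1 cluster, was read by 1 probe set. It measured 3.59, 3.30, 3.80 and 3.75 in WT and 2.10, 1.79, 2.06 and 3.29 in KO. KO replicate 4 lay just under the lowest WT array, WT replicate 2, and well above the other KO arrays. The difference was −1.30 ± 0.26 log2 (adjusted limma p 0.201), −1.41 without WT replicate 2, and −1.63 without KO replicate 4, where it passed (adjusted limma p 0.00457). Scml4, a Polycomb-group protein, was higher in KO by 0.63 ± 0.14 log2, with KO arrays between 3.45 and 3.53 and WT arrays between 2.68 and 3.10, and by 0.57 without WT replicate 2. Rny3, a Y RNA of the Ro particle read by 1 probe set, was higher by 0.74 ± 0.17 log2, with WT replicate 3 (4.71) close to the lowest KO array (4.77), and by 0.70 without WT replicate 2. The others were Trav13-5, a T cell receptor variable segment whose relatives are similar in sequence and may share its probes (0.58 log2), Gm6983 (−0.60), A630089N07Rik (−0.74) and 2510009E07Rik (0.43), each read by 1 or 2 probe sets. These were, without WT replicate 2, 0.60 for Trav13-5, −0.67 for Gm6983, −0.69 for A630089N07Rik and 0.38 for 2510009E07Rik.

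The last pair of the 20 lies on chromosome 12, the chromosome of Ogr1 itself. Dglucy, which encodes the mitochondrial enzyme D-glutamate cyclase, is the gene next to Ogr1. It measured 3.99, 3.84, 4.29 and 4.18 in WT and 3.26, 3.40, 3.38 and 3.49 in KO. The KO arrays lay within a narrow band below all WT arrays, and 13 of 16 probe sets were lower in KO. The difference was −0.69 ± 0.13 log2 (95% interval −0.96 to −0.43, adjusted limma p 0.141). Without WT replicate 2 it was −0.77 (adjusted limma p 0.117), and Dglucy passed under a second quantile normalization (adjusted limma p 0.0457). With the median over probe sets it was −0.82 (adjusted limma p 0.373), and with the brightest probe set −0.86 (adjusted limma p 0.124). Clmn, which encodes calmin, a membrane protein with actin-binding domains, measured 2.37, 3.32, 3.02 and 3.06 in WT and 2.21, 1.91, 1.85 and 1.84 in KO. Its difference was −0.99 ± 0.22 log2 (adjusted limma p 0.294), all 16 probe sets were lower in KO, and WT replicate 1 came closest to the KO arrays. It was −0.86 without WT replicate 2.

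The genes that lie around Ogr1 on chromosome 12 were also read as a group. Of the 20 genes to each side, 24 were tested and none passed. In 4 of the 24 the KO and WT arrays did not overlap at pH 7.7, against 3.61% of all genes. They were Dglucy, Zc3h14 (−0.38 ± 0.12 log2), a poly(A)-binding protein, and Psmc1 (−0.29 ± 0.10), an ATPase of the proteasome, all lower in KO, and Ttc7b (0.32 ± 0.14), a partner of a lipid kinase at the plasma membrane, higher in KO. Apart from Dglucy these were named after their values were seen. The median over the 24 was 0.03 log2, beside 0.027 for all genes, and 14 had the same sign at pH 6.7. Without WT replicate 2 the median was −0.08, beside −0.013 for all genes. In that setting 5 of the 24 lay without overlap below WT and 1 above, beside 4.93% and 3.28% of all genes. Ccdc88c, the neighbour on the other side of Ogr1, differed by −0.07 log2 at pH 7.7 with overlapping arrays and by −0.44 at pH 6.7 without overlap. Gpr65, another proton-sensing receptor encoded nearby, had overlapping arrays and differed by −0.07 ± 0.14 log2. Without WT replicate 2 its difference was −0.23 and the arrays no longer overlapped.

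Gene lists were then described by their counts and medians beside those of all genes tested, for which the median difference was 0.027 and 6371 of 11177 genes were positive. No member of any list passed the adjusted threshold. Members other than Selp, Tnfrsf13c, Clec4d and Dglucy were named after their values were seen.

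The genes of alternative activation, the state that interleukin-4 induces in macrophages, had the highest median of the 37 lists of functions. Of 20 genes with a value 14 were tested, and all 14 were positive in KO minus WT. An unadjusted p under 0.05 on the higher side was found for 7 (5.48% of all genes had one). Above WT without overlap lay 2 (2.41% of all genes did). The median of the 14 was 0.45 log2 and 0.36 without WT replicate 2. Over all 20 without the filter it was 0.30. Ear2, an eosinophil-associated ribonuclease read by 1 probe set, measured 4.74, 3.85, 4.05 and 3.27 in WT and 4.75, 5.54, 4.77 and 5.46 in KO. The groups nearly touched, with WT replicate 1 just under the lowest KO array, and the difference was 1.15 ± 0.34 log2 (adjusted limma p 0.423). Irf4, the transcription factor of this programme, measured 3.29, 2.83, 3.46 and 3.22 in WT and 3.58, 3.6, 3.58 and 4.0 in KO (0.50 ± 0.16 log2, adjusted limma p 0.447).

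Arg1, the arginase that defines alternatively activated mouse macrophages, measured 4.79, 3.45, 3.71 and 3.36 in WT and 4.53, 5.54, 3.83 and 5.70 in KO. Its groups overlapped, since WT replicate 1 lay above 2 of the KO arrays, and the difference was 1.07 ± 0.38 log2 (adjusted limma p 0.51). Ccl24, an eosinophil chemoattractant, was higher by 0.84 ± 0.26 log2 and the transglutaminase Tgm2 by 0.65 ± 0.23 log2, both with overlapping arrays and neither past the threshold. Without WT replicate 2 these differences were 0.68 and 0.47. Mrc1, the mannose receptor, differed by 0.10 ± 0.37 log2 and turned to −0.20 without WT replicate 2. Clec7a, the β-glucan receptor, differed by 0.06 ± 0.08 log2. At pH 6.7 the median of the list was −0.16 log2. On the arrays with a low Sparc set its median at pH 7.7 was 0.24 log2.

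**Figure D4:**
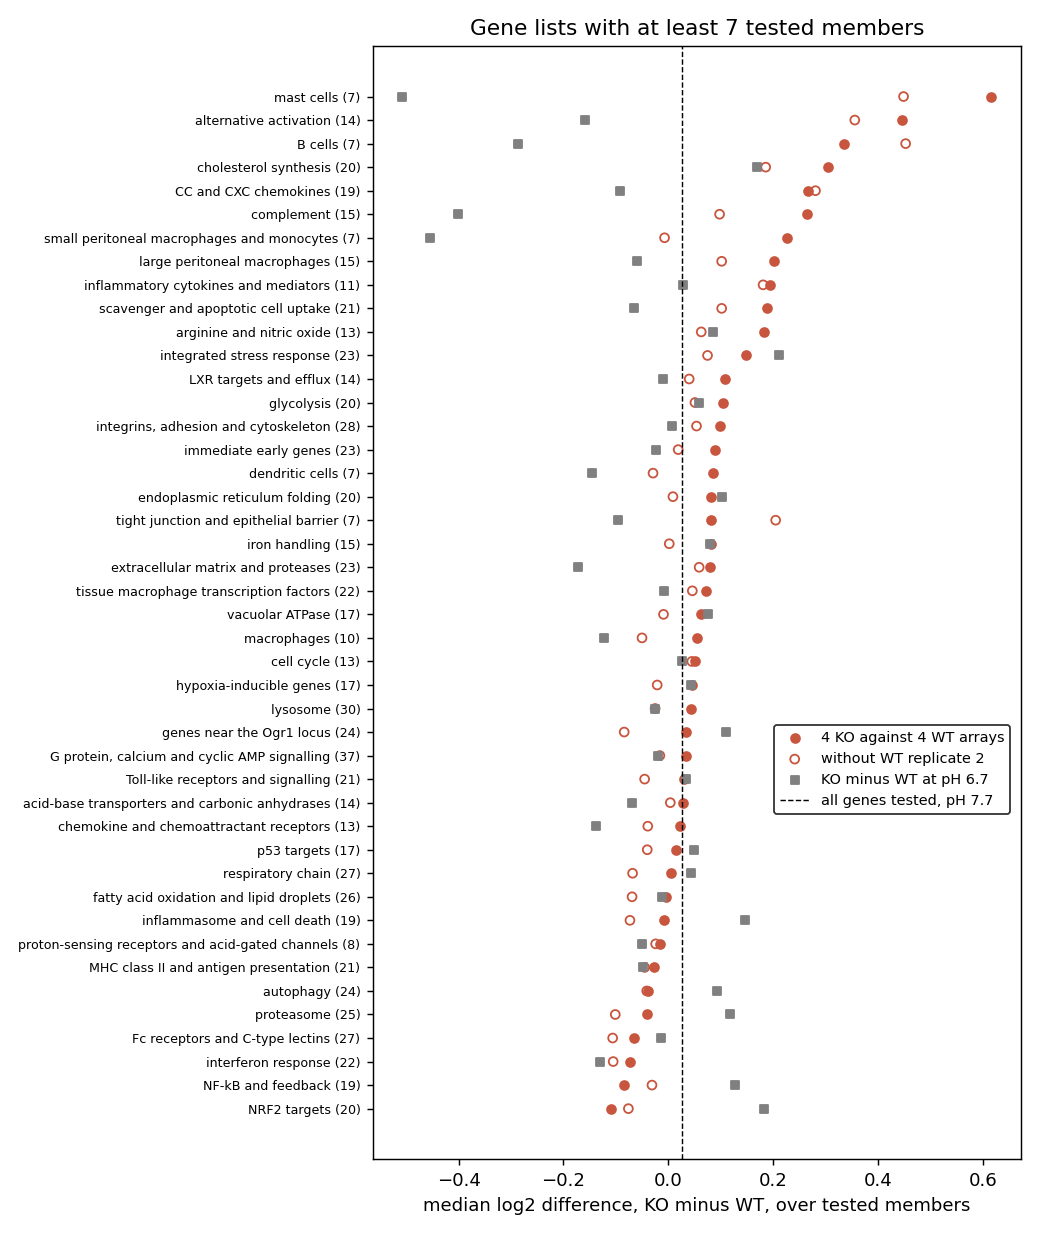
Median log2 difference between KO and WT over the tested members of each list (number tested in brackets), for lists with at least 7. Red points use all 8 arrays at pH 7.7, open circles leave out WT replicate 2, grey squares are pH 6.7 and the dashed line is the median of all genes at pH 7.7 (0.027); mast cells (0.62) and alternative activation (0.45) lie farthest to the right.

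The markers of mast cells, granulated cells that share the peritoneal cavity with macrophages, had the highest median of the 11 marker lists with all arrays, and a median just under that of B cells without WT replicate 2. Of 13 with a value 7 were tested, all 7 were positive, and 4 lay without overlap above WT (Kit, Mcpt4, Cma1 and Hdc), against 2.41% of all genes. The median difference of the 7 was 0.62 log2 and 0.45 without WT replicate 2. A gene could pass the filter through the arrays on which it was high. Over all 13 without the filter the median was 0.42. Of these 13, Ms4a2 (means of 1.88 in WT and 1.78 in KO) went the other way, and the rest had higher KO means. The WT means of Kit (2.41), Mcpt4 (2.24) and Cma1 (2.25) lay under the median gene value of every array. Their KO means (2.82, 2.88 and 3.03) lay just above it, while Hdc had means of 2.99 in WT and 3.51 in KO. Cpa3, the carboxypeptidase of mast cell granules, measured 3.74, 2.20, 3.69 and 4.35 in WT and 4.21, 5.54, 4.28 and 4.86 in KO. WT replicate 4 lay within the KO range and WT replicate 2 far below, and the difference was 1.22 ± 0.62 log2 (adjusted limma p 0.615), and 0.79 without WT replicate 2. Cma1, the mast cell chymase, measured 2.23, 2.01, 2.05 and 2.72 in WT and 3.01, 3.25, 2.87 and 2.98 in KO (0.77 ± 0.33 log2, adjusted limma p 0.534). Over the 13 markers the mean was 1.99 to 2.49 on the WT arrays and 2.52 to 2.84 on the KO arrays, with KO replicate 2 highest. At pH 6.7 the median difference of the 7 was −0.51. The means over the 13 overlapped there, at 2.06 to 3.90 in WT, with replicate 1 highest, and 2.13 to 2.53 in KO. The part of mast cell number in these values was not tested.

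Complement genes, which encode proteins that mark particles for uptake, were positive in 14 of 15 tested, with a median of 0.27 log2 that shrank to 0.10 without WT replicate 2. C1qc, a chain of the C1q recognition protein, measured 8.82, 6.94, 8.25 and 8.37 in WT and 9.11, 8.94, 8.52 and 8.93 in KO. WT replicate 2 lay far below every other array, and the difference went from 0.78 ± 0.30 to 0.39 log2 without it. C1qa and C1qb had the same low array, with differences of 0.58 and 0.57 that became 0.25 and 0.24. Without overlap lay C4b (0.31 ± 0.14 log2), the fourth complement component, and Itgax (0.38 ± 0.13 log2), a chain of a complement receptor. At pH 6.7 the median of the list was −0.40 log2. WT replicate 2 was likewise the lowest of the 8 arrays for Csf1r, Adgre1, Mertk and Itgam, genes of macrophage identity whose differences lay between 0.01 and 0.19 log2. Without it Csf1r turned to −0.06 and Adgre1 to −0.04, while Itgam was at 0.006 and Mertk at 0.10.

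Genes of cholesterol synthesis, which SREBP2 switches on when sterols run low, were positive in 19 of 20, all 20 being tested. Their median was 0.31 log2, and 6 had an unadjusted p under 0.05 on the higher side (5.48% of all genes did). None lay without overlap. Sc5d, an enzyme late in the pathway, measured 7.21, 6.12, 7.22 and 6.58 in WT and 7.20, 7.61, 7.12 and 7.43 in KO. WT replicates 2 and 4 were low and WT replicates 1 and 3 lay among the KO arrays, and the difference was 0.56 ± 0.21 log2 (adjusted limma p 0.526), and 0.34 without WT replicate 2. Insig1, the sterol-regulated brake of the pathway, had the same order, at 8.71, 7.76, 8.76 and 8.01 in WT and 8.55, 8.86, 8.70 and 8.90 in KO, and its difference went from 0.44 to 0.26 without that array. The median of the list was 0.19 without WT replicate 2 and 0.17 at pH 6.7.

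Chemokine genes were positive in 16 of 19 tested, with a median of 0.27 log2, 0.28 without WT replicate 2, and none lay without overlap. Ccl2, the monocyte chemoattractant, measured 3.64, 2.44, 3.46 and 2.69 in WT and 2.98, 3.6, 3.68 and 4.56 in KO (0.65 ± 0.30 log2, adjusted limma p 0.568). Its difference was 0.44 without WT replicate 2. Cxcl16, which encodes a membrane-bound chemokine, went the other way by −0.26 ± 0.11 log2. Among cytokines Osm, which encodes oncostatin M, lay without overlap above WT (0.54 ± 0.15 log2, adjusted limma p 0.423). Tnf, which encodes tumour necrosis factor, had a lower KO mean (−0.55 ± 0.22 log2, adjusted limma p 0.529) with WT values of 4.69, 5.12, 4.93 and 4.34 and KO values of 3.96, 4.25, 4.67 and 4.03. Its groups overlapped through WT replicate 4 and KO replicate 3.

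Targets of NRF2, the transcription factor of the antioxidant response, had the lowest median of the lists with at least 7 tested members. Without WT replicate 2 the lists of Fc receptors and C-type lectins (−0.11), the interferon response (−0.11) and the proteasome (−0.10) were lower. So was that of the genes near Ogr1 (−0.084, against −0.076 for NRF2 targets). Of 20 tested 5 were positive, 5 had an unadjusted p under 0.05 on the lower side (3.02% of all genes did) and the median was −0.11 log2, −0.08 without WT replicate 2. Gclc, the catalytic subunit of the enzyme that starts glutathione synthesis, measured 5.31, 5.29, 5.34 and 5.33 in WT and 4.46, 4.58, 5.22 and 4.89 in KO. The WT arrays were nearly equal and all above the spread KO arrays, and the difference was −0.53 ± 0.19 log2 (adjusted limma p 0.491). Gclm, the regulatory subunit of the same enzyme, differed by −0.43 ± 0.19 log2 and Slc7a11, the cystine importer that feeds it, by −0.60 ± 0.26 log2, both with overlapping arrays. Without WT replicate 2 these differences were −0.31 and −0.43. Prdx1, a peroxiredoxin, lay without overlap below WT (−0.20 ± 0.09 log2). Tkt, the transketolase of the pentose phosphate pathway, went the other way without overlap (0.29 ± 0.08 log2, adjusted limma p 0.412). At pH 6.7 the median of the list was 0.18 log2.

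Other lists also held genes without overlap, as 2.41% of all genes tested lay above WT and 1.2% below. Above WT lay 3 of 23 tested immediate early genes and 3 of 23 integrated stress response genes. For endoplasmic reticulum folding it was 4 of 20. Of 28 integrin, adhesion and cytoskeleton genes 3 lay above and 1 below, and of 20 glycolysis genes 1 lay above. Among immediate early genes, the first transcription factors made after a stimulus, Myc measured 4.94, 4.64, 5.01 and 4.47 in WT and 6.27, 5.08, 5.51 and 5.97 in KO. The difference was 0.94 ± 0.31 log2 (adjusted limma p 0.473), 0.90 without WT replicate 2, and the highest values were those of KO replicates 1 and 4, the arrays with a high Sparc set. Egr3 (0.65 ± 0.17 log2) and Egr1 (0.30 ± 0.16 log2), zinc finger factors of the same class, also lay without overlap, and Junb had a lower mean (−0.25 ± 0.11 log2). In the integrated stress response Sesn2, a sensor of leucine, measured 2.65, 2.62, 2.80 and 2.71 in WT and 3.08, 3.09, 3.17 and 3.09 in KO. Both groups were tight and the difference was 0.42 ± 0.10 log2 (adjusted limma p 0.319). Ldha, lactate dehydrogenase A of glycolysis, lay without overlap above WT (0.35 ± 0.10 log2, adjusted limma p 0.423), and Itgal, the alpha chain of the integrin LFA-1, below it (−0.34 ± 0.10 log2, adjusted limma p 0.437).

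Lists closer to the biochemistry of Ogr1 had medians near that of all genes. Of the 37 tested genes of G protein, calcium and cyclic AMP signalling, 2 had an unadjusted p under 0.05 (8.5% of all genes did), and the median was 0.03 log2 and −0.02 without WT replicate 2. Among 8 tested proton-sensing receptors and acid-gated channels the median was −0.02 log2 with and without that array. The acid-inhibited potassium channel gene Kcnk3 lay without overlap above WT, at 2.56, 2.48, 2.27 and 2.45 in WT and 2.74, 2.72, 3.0 and 2.62 in KO (0.33 ± 0.11 log2, adjusted limma p 0.482). The vacuolar ATPase, the proton pump of lysosomes, had a median of 0.06 over 17 subunit genes, −0.01 without that array, and none at an unadjusted p under 0.05. Lysosomal genes had a median of 0.04 over 30 (−0.03 without that array), and acid-base transporters and carbonic anhydrases 0.03 over 14 (0.004 without it). Genes of NF-kB and its feedback were positive in 4 of 19 (median −0.09 log2, and −0.03 without that array), with Nfkbia, the inhibitor that NF-kB itself induces, without overlap below WT (−0.25 ± 0.15 log2).

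At pH 6.7, where other arrays of both genotypes were used, 4 genes passed in KO against WT (0.0358% of those tested) and 959 lay without overlap (8.58%), 697 higher in KO (6.24%) and 262 lower (2.34%). Across all 11177 genes the difference between genotypes at pH 7.7 correlated with that at pH 6.7 with r = −0.327 (rho −0.251), and 43.5% of genes had the same sign. These values describe genes, which are not independent replicates. The 2 differences share no array, but every array was scaled together with the others. The correlation was −0.324 without WT replicate 2 and −0.107 on the arrays with a low Sparc set. Of the 20 genes above, 5 had the same sign at both pH values. Selp measured 6.44, 6.44, 5.98 and 5.33 in WT and 6.03, 5.96, 5.31 and 5.55 in KO at pH 6.7, so at this pH its groups overlapped and every array stood above all but the highest KO array of pH 7.7.

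The gap between genotypes differed between the pH values past the threshold for 11 genes (0.0984%) in the interaction of the same fit. It is the genotype difference at pH 6.7 minus that at pH 7.7, and it was positive for 9 of the 11. Gm6983, a predicted gene read by 1 probe set, was lower in KO at pH 7.7 (3.88 against 4.47) and higher in KO at pH 6.7 (4.79 against 4.0). Its interaction was 1.39 ± 0.16 log2 (adjusted limma p 0.00113). Dleu2 crossed in the same way, from −1.30 at pH 7.7 to 1.25 at pH 6.7 (interaction 2.55 ± 0.37, adjusted limma p 0.0165), without overlap at either pH, as did A630089N07Rik, from −0.74 to 0.66 (adjusted limma p 0.0289). Zc3h12c, an RNA-binding protein of the regnase family named here as part of the 11, had means of 5.80 in WT and 5.49 in KO at pH 7.7 and of 5.12 in WT and 5.55 in KO at pH 6.7. The interactions of Selp (adjusted limma p 0.0956), Atp2a3 (0.0727), Fbxo32 (0.0612) and Cnot8 (0.0995) did not pass.

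In 10 genes (0.0895%) the genotypes lay without overlap in the same direction at both pH values, and in 31 (0.277%) in opposite directions. The 10 were Dglucy, Clmn, Gstt3 and Esrra, lower in KO, and Serpinb1a, Tkt, Pank3, Ahi1, Timm17a and Nudt5, higher in KO. Dglucy measured 4.76, 4.26, 4.59 and 4.46 in WT and 4.14, 3.78, 4.01 and 4.18 in KO at pH 6.7, a difference of −0.49 ± 0.13 log2 (adjusted limma p 0.15). Clmn differed there by −0.86 ± 0.22 log2 (adjusted limma p 0.15), with 15 of 16 probe sets lower. Serpinb1a, an inhibitor of neutrophil proteases, measured 4.92, 4.61, 4.76 and 4.43 in WT and 5.91, 5.21, 6.39 and 5.02 in KO at pH 7.7. Its difference was 0.95 ± 0.24 log2 at pH 7.7 and 0.64 ± 0.24 at pH 6.7, and all 7 probe sets were higher in KO at each pH. Gstt3, a glutathione transferase, differed by −0.36 ± 0.09 log2 at pH 7.7 and −0.30 ± 0.09 at pH 6.7. These genes were singled out after their values were seen, and none passed the adjusted threshold at either pH.

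**Figure D5:**
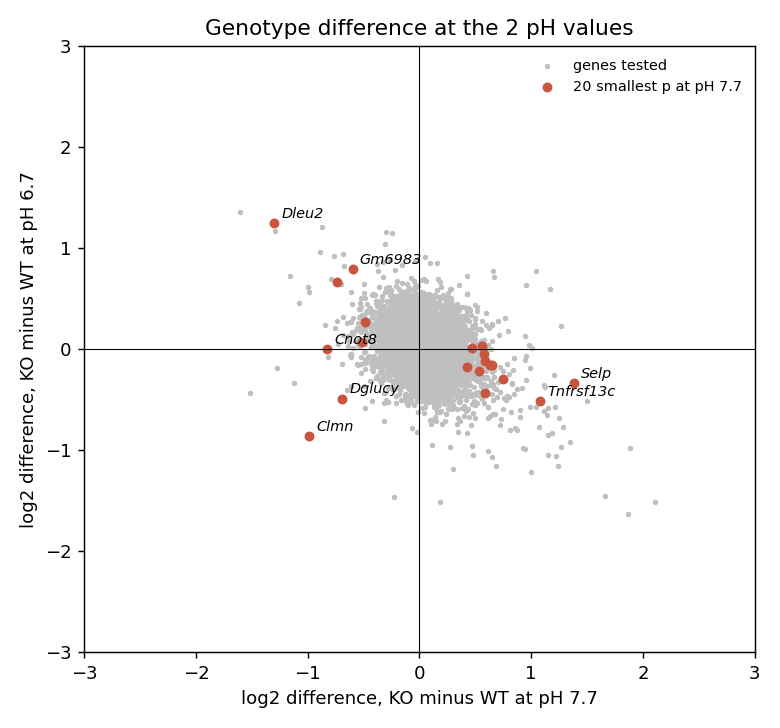
Log2 difference between KO and WT at pH 7.7 (horizontal) against that at pH 6.7 (vertical) for the 11177 genes tested, with the 20 genes of smallest p at pH 7.7 in red. Dglucy and Clmn lie below zero on both axes, while Dleu2 and Gm6983 are below zero at pH 7.7 and above it at pH 6.7.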

How the data were processed

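The authors deposited an intensity for every probe set of an array (linear scale, 0.8798 to 5510); per the submitters' processing notes it was made with RMA under R 2.15.2. Per the labels' protocols, labelled cRNA came from 6 µg of total RNA. The deposited intensities were converted to log2 here. Of 241576 probe sets, the platform annotation gives 213361 a single symbol; these were used, and the 5107 with several and 23108 without were left out. Symbols were updated (2354), current (18496) or kept (43) against the GRCm38.p6 gene table, used for names and neighbours only.

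limma 3.58.1 (R 4.3.3) fitted a mean per group over 16 arrays with eBayes moderation, and all tests were 2-sided. The steps were tested on simulated data. The comparison, the 37 function and 11 marker lists and the tests were chosen with earlier results of these data known. Named genes were to be those past the threshold, and where fewer than 10 passed, the 20 with the smallest p. Same-numbered replicates deviated together with correlations of −0.157 to 0.038, so numbers were not treated as pairs. The labels name no batch. A level is not a detection call. Alternatives covered probe set summary, filter, scaling, offset, variance model, array weights, block and left-out arrays.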

Additional observations from a re-analysis of the deposited data

Results flagged for a closer look

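Among the 20 genes with the smallest p at pH 7.7, 3 passed the threshold in the interaction, against 0.0984% of all genes tested. The interaction is the genotype difference at pH 6.7 minus that at pH 7.7, and the 20 were chosen by the latter. The count therefore carries no further weight. The interaction was 1.39 log2 for Gm6983 (adjusted limma p 0.00113), 2.55 for Dleu2 (adjusted limma p 0.0165) and 1.40 for A630089N07Rik (adjusted limma p 0.0289). In each, all 4 KO arrays lay below all 4 WT arrays at pH 7.7 and above them at pH 6.7. Gm6983 and Dleu2 are each read by 1 probe set and A630089N07Rik by 2. The interaction was 0.74 for Zc3h12c (adjusted limma p 0.0289), which is read by 5.

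Single arrays stood beyond Dixon's 95% limit in 6 of 160 groups of 4 arrays at pH 7.7, the WT and KO groups of the 80 genes described, and chance flags about 1 group in 20. KO replicate 3 was low for Gpr65 (6.75, the others 7.10 to 7.11) and for Nfkbia (5.04, the others 5.26 to 5.29), and high for Sesn2 (3.17, the others 3.08 to 3.09). KO replicate 4 was high for Irf4 (4.0, the others 3.58 to 3.6) and for Itgax (7.46, the others 7.30 to 7.32). WT replicate 2 was low for Ldha (7.09, the others 7.35 to 7.40).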

How the results depend on the processing

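All 20 named genes kept their direction and stayed on their side of the threshold in 555 of the 565 values computed under an alternative. In 9 a gene passed, and Hps3 turned to 0.110 log2 with the brightest probe set. Where arrays were only left out, the direction of the 20 genes could not change, since their groups did not overlap. The count of genes past the threshold at pH 7.7, 0 as reported, was 2 with the brightest probe set (Fcrl1 higher, Zfp37 lower), 1 with the stricter filter (75th percentile) and with centred arrays (Cnot8), 1 with another quantile normalization (Dglucy, which makes the count near Ogr1 1), and 1 on the arrays with a low Sparc set (Dleu2), an alternative chosen after seeing the data. Leaving out each array in turn gave 0 to 3: 3 without WT replicate 3 (Cnot8, Rny3, H3c14), 2 without WT replicate 4 of pH 6.7 (Atp2a3, Cnot8) and 1 without KO replicate 4 (Dleu2). Near Ogr1 that range was 0 to 0.

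At pH 6.7 the count of 4 became 62 with the brightest probe set, 11 with array weights, 1 with the stricter filter, and 0 with the median over probe sets, another quantile normalization, the 8 arrays of pH 6.7 alone and the Sparc set level as a covariate, with 0 to 6 when single arrays were left out. The interaction count of 11 became 114 with the brightest probe set, 28 with array weights, 20 with log2(value + 8), 4 with the median over probe sets, 2 with the stricter filter and on the arrays with a low Sparc set, and 3 with that level as a covariate. It was 1 to 25 when single arrays were left out, 25 without WT replicate 1 and 4 without WT replicate 2 of pH 7.7. The fit with a replicate block gave counts of 0 at pH 7.7, 0 at pH 6.7 and 5 for the interaction. The causes were not tested. The number of genes without overlap at pH 7.7, 403, was 710 with the brightest probe set and 403 to 918 when single arrays were left out, where fewer arrays make overlap rarer. The median of mast cell markers was 1.16 with the brightest probe set and 0.32 with log2(value + 8).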

Other observations

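Some members of the lists not described above are given here, each chosen after its values were seen. Mmp8, which encodes a collagenase, measured 7.47, 8.18, 7.88 and 8.16 in WT and 6.90, 7.50, 7.36 and 6.92 in KO at pH 7.7 (−0.75 ± 0.18 log2, adjusted limma p 0.301), with WT replicate 1 just under KO replicate 2. Spp1, which encodes osteopontin, measured 5.19, 4.57, 5.28 and 4.44 in WT and 5.81, 5.78, 5.95 and 5.12 in KO (0.80 ± 0.25 log2, adjusted limma p 0.451). Slc40a1, the iron exporter ferroportin, differed by −0.52 ± 0.16 log2 at pH 7.7 and 0.50 at pH 6.7. Lipn, a lipase gene, differed by −0.68 ± 0.21 log2 (adjusted limma p 0.451), with WT replicate 1 (3.26) far below the other WT arrays. Arg2, the mitochondrial arginase, lay without overlap below WT at pH 7.7 (−0.49 ± 0.24 log2), in the opposite direction to the difference of Arg1. None of these passed the threshold.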
